A study of Neurospora crassa with 16 samples.

Results

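The carotenoid pigment synthesis genes of Neurospora crassa, a filamentous fungus, were followed in a strain without lsd1, the gene of the histone demethylase LSD1. The 5 genes are al-1, al-2, al-3, cao-2 and ylo-1. They were chosen by locus identifier for their place in the pathway, with no measured value in the rule, and are 5 of the 9730 genes counted. RNA was sequenced as 2 libraries of strain N5555, which is of mating type a and carries hph in place of lsd1 (mat a delta_lsd1::hph). Both libraries are therefore of 1 strain, and nothing in the labels says whether they came from separate cultures, so their spread may be technical. The cultures came from germinated conidia, the asexual spores, and grew with shaking in Vogel's medium with 1.5% sucrose at 32 °C for 16 h. The labels do not give the light the cultures received. Wild type enters only through 2 gene tables that the authors deposited, one of genes called higher in Δlsd1 and one of genes called lower. The wild-type RNA libraries behind them belong to another series. The wild-type strain named in this series is N3752, of mating type A, in an H3K4me3 sample not analysed here. Strain, mating type and series cannot be told apart in the comparison of Δlsd1 with wild type.

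Neurospora makes the orange carotenoid neurosporaxanthin from the isoprenoid precursors that also feed sterol synthesis. The product of al-3 makes geranylgeranyl diphosphate, which the enzyme encoded by al-2 joins into phytoene, and the same enzyme later cyclises the desaturated chain. The al-1 enzyme desaturates phytoene, the cao-2 enzyme cleaves the resulting torulene, and the ylo-1 enzyme oxidises the cleaved aldehyde to the final acid. Mutations in the al genes can make the fungus albino, and loss of ylo-1 makes it yellow. In mycelium the pathway is known for its induction by blue light through the White Collar complex, while conidia also accumulate pigment in the dark.

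Gene reads numbered 7017726 in replicate 1 and 6797672 in replicate 2. NCU09120, which is lsd1 by general knowledge and not by the reference table, had 41 and 65 of them, and its log2 change in the authors' deposited table was -2.93. All 5 pathway genes had over 500 reads in each library and passed the minimum of 10 reads per library. Levels below are counts per 1000000 gene reads (CPM) after scaling, and levels of different genes are set side by side only as CPM per kb of the annotated gene span, which holds the introns.

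The whole pathway was expressed in Δlsd1, very unevenly along its steps. The entry enzyme al-3 (NCU01427, chromosome V, 4030155 to 4032913 on assembly NC12) was counted at 711 reads in replicate 1 and 671 in replicate 2, or 98.8 and 101 CPM. That is a level of 36.2 ± 0.63 CPM per kb (SD, n = 2), with the libraries nearly level. The phytoene synthase and cyclase gene al-2 (NCU00585, chromosome I, 7920916 to 7924255) had 17189 and 12803 reads, 2388 and 1932 CPM. It stood at 647 ± 96.6 CPM per kb (SD, n = 2), with replicate 1 the higher. The desaturase gene al-1 (NCU00552, chromosome I, 8029857 to 8032395) had 8905 and 9043 reads, 1237 and 1364 CPM, a level of 512 ± 35.4 CPM per kb (SD, n = 2), here with replicate 2 the higher.

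Downstream of torulene the levels were lower than those of al-2 and al-1, but cao-2 stood above al-3 in both libraries. The cleavage gene cao-2 (NCU11424, chromosome VII, 2483 to 4931) had 978 and 1223 reads, 136 and 185 CPM, and stood at 65.4 ± 14.0 CPM per kb (SD, n = 2). The gene of the final oxidation, ylo-1 (NCU04013, chromosome VI, 2441355 to 2444495), had 543 and 547 reads, 75.4 and 82.5 CPM, or 25.1 ± 1.60 CPM per kb (SD, n = 2). It was the lowest of the 5 in each library. Exact Poisson intervals at 95%, which cover counting error only, ran from 69.2 to 82.1 CPM in replicate 1 and from 75.8 to 89.7 CPM in replicate 2 for this gene.

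**Figure D1:**
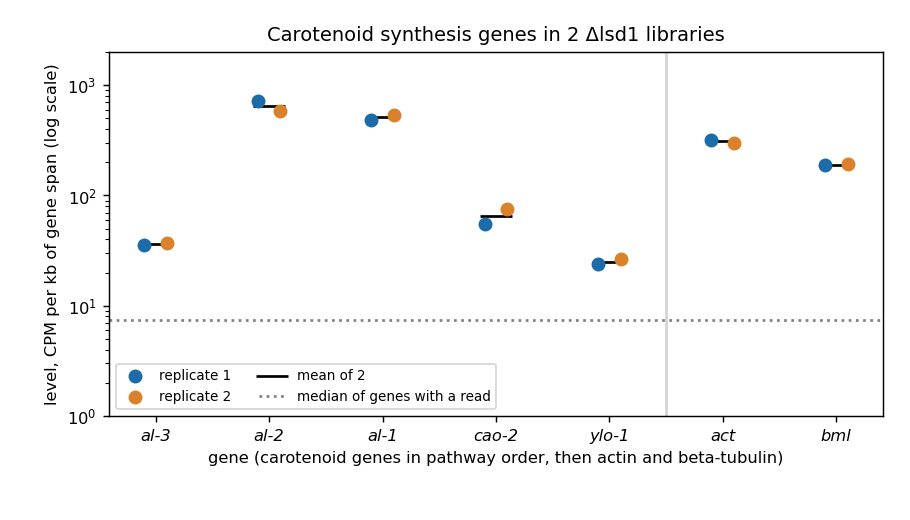
Level of each carotenoid gene in pathway order, with actin (act) and beta-tubulin (bml) beside them, in CPM per kb of gene span on a log axis; points are the 2 Δlsd1 libraries, bars their mean, and the dotted line the median of genes with at least 1 read. al-2 and al-1 sit at 647 and 512 CPM per kb, above actin at 311, and the other 3 lie between 25.1 and 65.4.

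The plot of levels in pathway order shows the split between al-2 and al-1 on one side and al-3, cao-2 and ylo-1 on the other. Per kb, the order was al-2, al-1, cao-2, al-3, ylo-1 in both libraries, and the values of neighbouring genes in this order did not overlap. The distance between al-2 and al-1 was the smallest, a ratio of 1.47 in replicate 1 and 1.08 in replicate 2. The ratio of al-1 to cao-2 was 8.78 and 7.13, and that of al-2 to ylo-1 was 29.8 and 22.0. Among 8687 genes with at least 1 read and an annotated span, al-2 ranked 94, al-1 130, cao-2 873, al-3 1470 and ylo-1 1957 by mean CPM per kb. The median of such genes was 7.46 and 7.44 CPM per kb in the libraries, so each of the 5 lay above the middle of the transcriptome. Actin stood at 311 CPM per kb, below both al-2 and al-1.

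The libraries agreed closely on al-3 and ylo-1 and less so on al-2 and cao-2. Each gene's split of reads between the libraries was set against the scaled totals with an exact two-sided binomial test, adjusted by Benjamini-Hochberg over 7319 genes. This test compares these libraries, not conditions, and asks only whether the difference is beyond counting error. By it al-2 was 1.24-fold higher in replicate 1 (adjusted p = 2.64e-72, exact binomial). Its partner in the middle of the pathway, al-1, was 1.10-fold higher in replicate 2 (adjusted p = 8.46e-10, exact binomial), and cao-2 was 1.36-fold higher there (adjusted p = 1.49e-11, exact binomial). For al-3 the ratio of replicate 2 to replicate 1 was 1.02 (adjusted p = 0.811, exact binomial) and for ylo-1 it was 1.09 (adjusted p = 0.313, exact binomial).

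Thus 3 of 5 pathway genes differed between the libraries, against 27.1% of all genes tested. Deep counts make small differences pass such a test. Of all genes tested, 20.4% had a larger absolute log2 ratio than cao-2, 34.8% a larger one than al-2, and 65.0% a larger one than al-1. The spread between the libraries over all genes, beyond counting error, was a coefficient of variation of 15.3%, and it may be technical. The median log2 ratio of replicate 1 over replicate 2 was -0.13 for the 5 genes, the value of ylo-1, and 0.0042 over all genes tested. With plain gene totals in place of the scaled ones, ylo-1 stood at -0.057. Of the 3 genes that passed the binomial test, al-2 was higher in replicate 1, and al-1 and cao-2 in replicate 2.

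Some genes of conidiation, the stage at which pigment also accumulates, differed widely between the libraries, above all eas. All 7 listed conidiation genes differed by the binomial test, against 27.1% of all genes tested. Replicate 1 was the higher for 4 of the 7 and replicate 2 for 3. The hydrophobin gene eas showed a 3.99-fold difference, from 9721 reads in replicate 1 to 2241 in replicate 2. The conidiation genes con-6 (1.82-fold), con-10 (1.65-fold) and the regulator fl (1.49-fold) were also higher in replicate 1. In contrast con-8, with 10634 and 12813 reads, was higher in replicate 2, and csp-1, with 5293 and 5292 reads, and csp-2, with 2008 and 2098, were close. Their summed level was 3991 CPM in replicate 1 and 3482 CPM in replicate 2, and 2641 and 3144 CPM without eas. None of the 7 was at 0 reads. The share of all genes tested with a larger absolute log2 ratio ran from 0.14% for eas to 71.3% for csp-1, with 56.5% for csp-2. Of the 11 listed light response genes, described below, 6 differed by the same test. Among these 6, bli-3 was 1.45-fold higher in replicate 1, and vvd was higher in replicate 2 (log2 ratio -0.38). The part of spore development in the carotenoid differences was not tested.

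**Figure D2:**
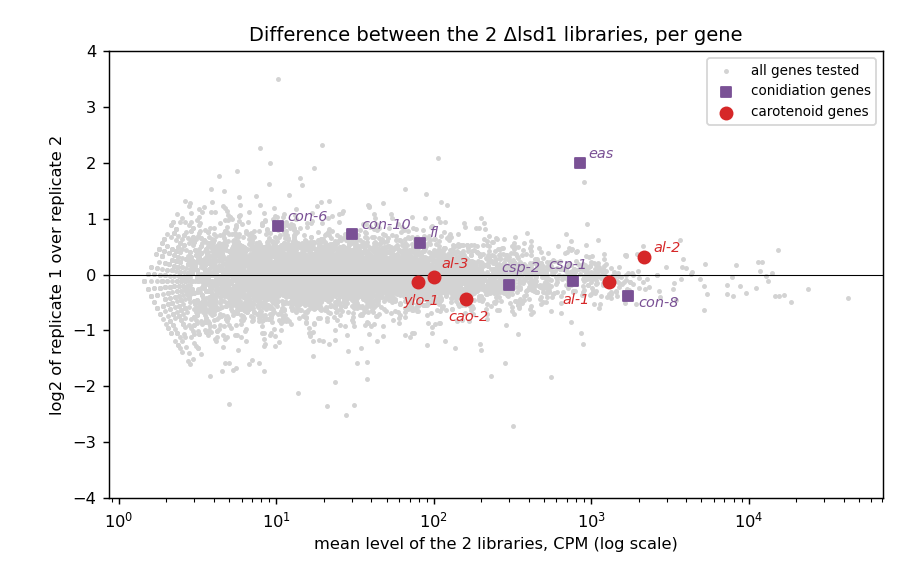
Log2 ratio of replicate 1 over replicate 2 against the mean level in CPM (log axis) for each of 7319 genes; grey points are all genes tested, red circles the 5 carotenoid genes and purple squares the 7 conidiation genes. The carotenoid genes lie between -0.44 (cao-2) and 0.31 (al-2), while eas lies at 2.00.

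None of the 5 carotenoid genes was among those called changed in Δlsd1. The authors' deposited tables held 0 of 5 as higher, where 3.51% of 8692 background genes were held, and 0 of 5 as lower, where 8.69% were. The background here is every gene with at least 1 read in either library or a place in a table. At such shares, 0 of 5 is near what the background gives, and it is not a result about the pathway. The wild-type values of genes outside the authors' deposited tables were not used here, so no fold change can be given for any of the 5.

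What absence from the authors' deposited tables means was described from the genes they hold. Each held gene changed at least 2-fold and had an unadjusted p-value of at most 0.0497, so a gene in neither changed less or had a larger p. On the scale of the authors' normalised counts, al-2 had a Δlsd1 mean of 24272 ± 3664 (SD, n = 2). A 2-fold change would have put its wild-type mean at 12136 or lower, or at 48544 or higher. For al-1 the mean was 14616 ± 987 (SD, n = 2) and the corresponding bounds 7308 and 29232. Of 13 genes of the authors' deposited tables with a Δlsd1 mean within 1.5 times that of al-1, 11 had changed less than 2.5-fold, and the largest unadjusted p among these was 0.0178. Near al-2 only 4 such genes lay in the authors' deposited tables, all higher in Δlsd1, with a largest p of 2.13e-05.

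The less abundant transcripts had more tabled genes near them. On the same scale cao-2 had a mean of 1801 ± 384 (SD, n = 2), al-3 1125 ± 17.8 (SD, n = 2) and ylo-1 889 ± 55.0 (SD, n = 2). Within 1.5 times of these means the authors' deposited tables held 55, 82 and 111 genes, and of these 35, 47 and 60 had changed less than 2.5-fold. The largest p among the latter was 0.0181 near cao-2, 0.0389 near al-3 and 0.0453 near ylo-1. Changes not far above 2-fold, in either direction, were therefore tabled near the levels of al-1, cao-2, al-3 and ylo-1. Near al-2 this holds for increases alone, and the highest Δlsd1 mean in the authors' deposited tables, 23917, lay just under that of al-2. A change under 2-fold, or a larger one with a wide spread among the wild-type or the Δlsd1 libraries, would leave no trace in these tables.

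**Figure D3:**
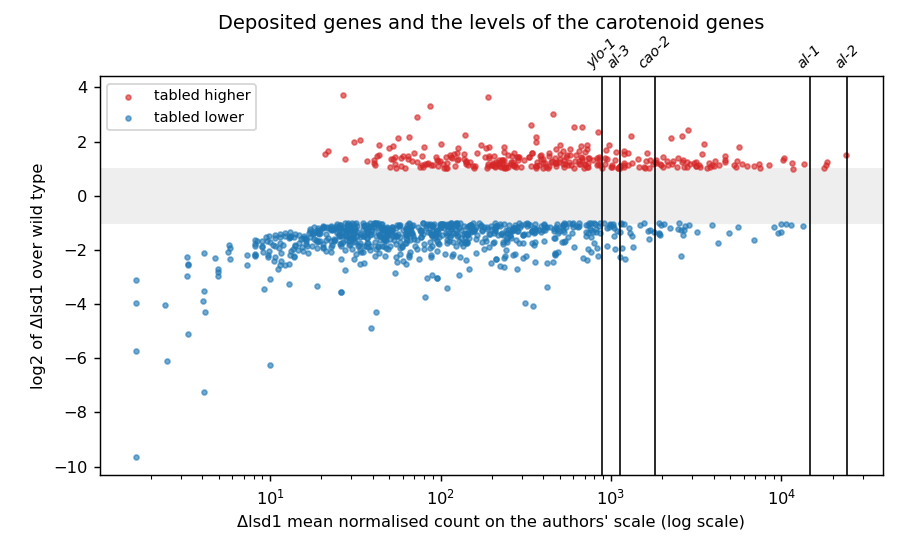
Log2 fold change of Δlsd1 over wild type against the Δlsd1 mean normalised count (log axis) for the 305 higher (red) and 755 lower (blue) genes of the authors' deposited tables; vertical lines mark the means of the 5 carotenoid genes on the same scale, and the grey band the changes under 2-fold that the tables leave out. Within 1.5 times of the mean, 4 tabled genes lie near al-2, all above the band, and 111 near ylo-1. Tabled genes lie on both sides of the band near al-1, cao-2, al-3 and ylo-1.

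Few genes beside the pathway could be read by symbol, and most of those were in neither table as well. Of 8 listed genes of the isoprenoid supply, 1 was found by symbol, farnesyl diphosphate synthase (fpp), which makes the substrate that al-3 extends. It had 1026 and 925 reads, or 73.3 and 71.7 CPM per kb, and was not called. The competing sterol branch was represented only by erg-1, erg-3 and erg-4, the 3 of 11 listed genes found by symbol. Of these 3, 1 was called lower, erg-3, a sterol reductase gene, whose log2 change in the authors' deposited table was -1.02 (adjusted p = 0.000667), and 0 were called higher, where the background shares were 8.69% lower and 3.51% higher. When replicate 2 alone was set against the wild-type mean that the authors' deposited table gives, erg-3 no longer reached 2-fold. The median level was 55.1 CPM per kb for the 3 sterol genes found and 65.4 CPM per kb for the 5 carotenoid genes.

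Genes of the light response, among them the regulators of the carotenoid genes, were mostly in neither table. The authors' deposited tables held 2 of 11 as higher, where 3.51% of background genes were held, and 0 of 11 as lower, where 8.69% were. The higher ones were the blue light-induced genes bli-4, with 14660 and 14718 reads, and bli-3, with 7889 and 5014. Their log2 changes in the authors' deposited table were 1.49 for bli-4 (adjusted p = 9.10e-15) and 1.40 for bli-3 (adjusted p = 0.00970). The White Collar genes wc-1 and wc-2, whose products activate al genes in light, had 976 and 1059 reads and 391 and 340 reads, and were in neither table. The photoadaptation receptor vvd stood at 383 and 499 CPM per kb and the cryptochrome gene cry at 397 and 436, both also in neither table. These 2 genes lay nearer to al-1 and al-2 in level than cao-2, al-3 or ylo-1 did. That is not particular to light response genes, since actin at 311, csp-1 at 337 and eas at 446 CPM per kb did so too. Within the light response list, bli-3 stood at 753 CPM per kb, but wc-1 at 22.9 and frq at 19.8.

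Of the 7 conidiation genes, the authors' deposited tables held 2 as higher, csp-2 (log2 fold change 1.05) and con-6 (1.41, adjusted p = 0.162), and 1 as lower, con-10 (-1.75), beside the same background shares of 3.51% and 8.69%. Against the wild-type mean that the authors' deposited table gives, csp-2 did not reach 2-fold with replicate 1 alone, nor con-6 with replicate 2 alone. The plot of levels by gene list sets the conidiation genes beside the pathway. In it the carotenoid genes span 25.1 to 647 CPM per kb, while the light response genes span 1.57 to 1011 and the conidiation genes 11.5 to 1009.

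**Figure D4:**
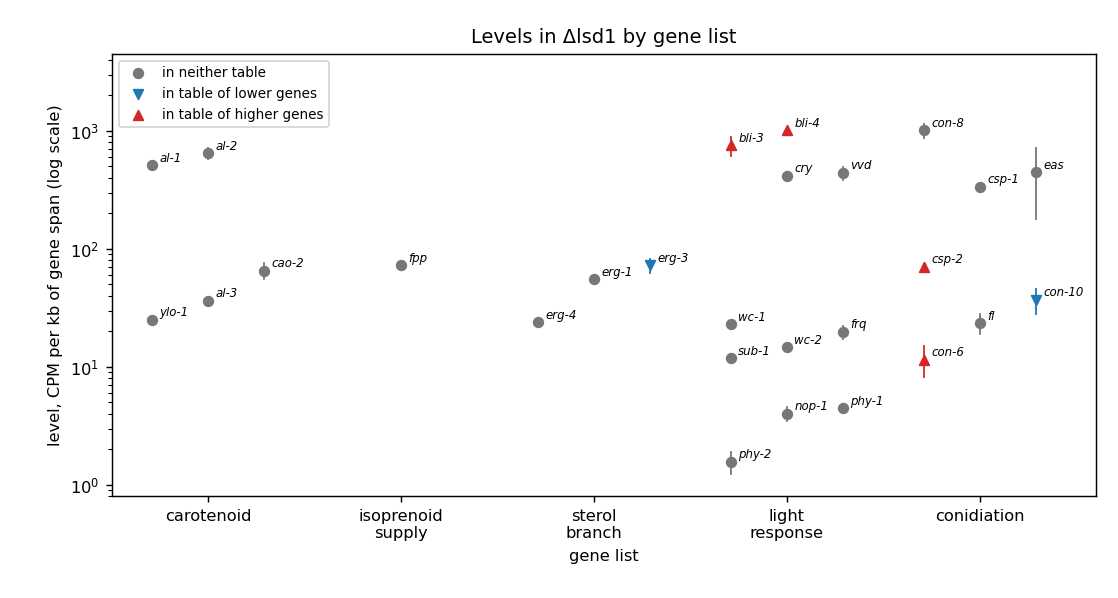
Level in CPM per kb of gene span (log axis) of each gene found by symbol, by gene list; markers are the mean of the 2 Δlsd1 libraries, vertical lines run between the libraries, and the shape and colour give the authors' deposited table that holds the gene. All 5 carotenoid genes are in neither table. Genes of both the light response and conidiation lists, among them bli-3, vvd, cry and eas, lie near al-1 and al-2 by their mean. For eas that mean joins 713 CPM per kb in replicate 1 and 179 in replicate 2.

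Among the 5 genes, al-2 and cao-2 lie in deposited regions. The series includes a list of 250 genomic regions on NC12 with no score, and the sources used here do not say how they were called. Overlap with a region was found for 2 of 5 carotenoid genes, against 2.43% of 9729 annotated genes. Counting regions within 1 kb or within 5 kb of a gene also gave 2 of 5, against 3.89% and 7.88%. Regions were assigned to chromosomes by supercontig number, and an exchange of supercontigs 2 and 7 also fits the chromosome extents. Under that exchange the overlap of cao-2 is lost and 1 of 5 is left. The count concerns 2 genes, and no test was made of it.

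The region at al-2 (chromosome I, 7921080 to 7931167) is 10088 bp long, the thirteenth longest in the list against a median of 2170.5 bp. It takes in 95.1% of the al-2 span, 3176 of 3340 bp, leaving out the left end, and the whole of NCU00584. The region ends 418 bp before cry, itself at 11967 and 12128 reads and outside the region. NCU00584 lies 11 bp from al-2 and had 1096 and 761 reads, 8.25 and 8.85 times less per kb than al-2. On the other side, 1243 bp from al-2 and outside the region, ncw-6 was called higher, at 1.06 on the log2 scale of the authors' deposited table (adjusted p = 0.00905). With replicate 2 alone set against the wild-type mean given there, ncw-6 did not reach 2-fold. Among the 236 genes that overlap a region, al-2 ranked 9 by CPM per kb, where the median was 7.68.

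The region at cao-2 (chromosome VII, 901 to 9020) is 8120 bp long and lies at the left end of the chromosome as annotated. It covers cao-2 entirely, as the second annotated gene of the chromosome, and with it NCU09306, NCU09305, NCU09304 and 69 bp of NCU09303. The other genes of this region had few reads in Δlsd1, with 8 and 4 reads for NCU09306, 20 and 6 for NCU09305, 34 and 26 for NCU09304 and 16 and 18 for NCU09303. Per kb, cao-2 stood 66.1-fold above NCU09306 in replicate 1 and 165-fold in replicate 2, and 27.4-fold and 114-fold above NCU09305. NCU09303 stood at -1.08 on the log2 scale in the authors' deposited table of lower genes (adjusted p = 0.0969). It did not reach 2-fold when replicate 2 alone was set against the wild-type mean. The other 3 were in neither table.

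**Figure D5:**
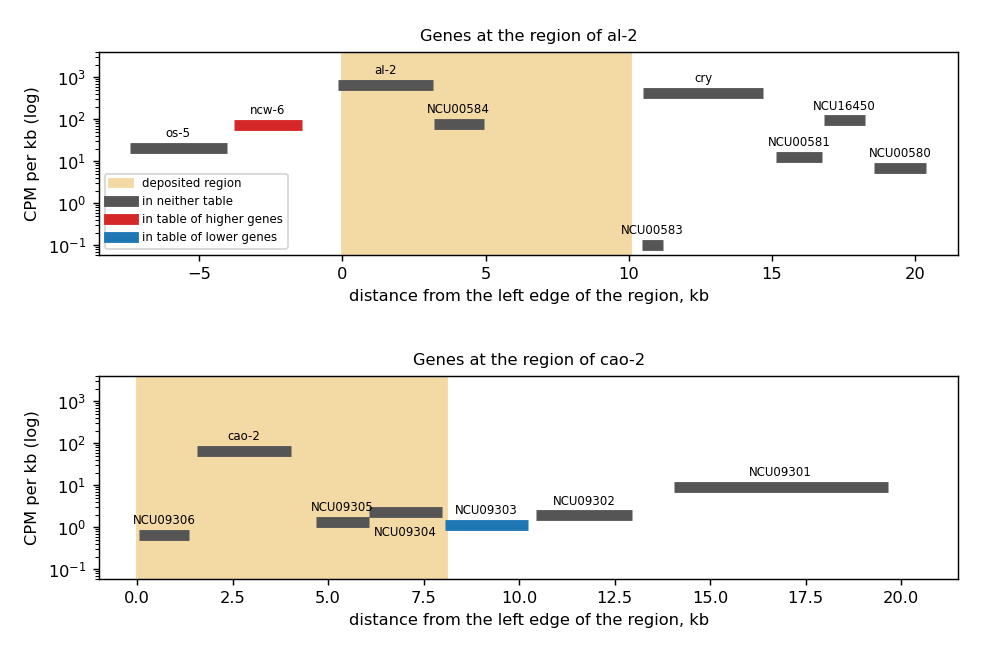
Genes around the regions at al-2 (top) and cao-2 (bottom), drawn by their distance from the region's left edge in kb and by their mean level in CPM per kb (log axis); shading is the deposited region, and bar colour gives the authors' deposited table that holds the gene. NCU00583 had 0 reads and is drawn at the foot of the axis; cao-2 stands above every other gene of its region.

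The level of cao-2 was also high among genes at chromosome ends. Of 80 genes within 20 kb of an annotated chromosome end, it ranked 6 by CPM per kb, with a median of 2.08 for the set. Among the 236 region genes cao-2 ranked 38.

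No region overlapped the other 3 pathway genes. The nearest lay 33.5 kb from al-3, 98.7 kb from al-1 and 118 kb from ylo-1. A region as near as that was found for 31.2%, 64.4% and 71.3% of genes, and that nearest to al-1 is the region of al-2 itself, since the genes lie 105.6 kb apart on chromosome I. Of the light response list, frq, the clock gene, overlapped a region, with 604 and 713 reads and no call.

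The neighbours of these 3 genes were also in neither table. Per kb, al-1 stood 32.4-fold and 34.9-fold above NCU00553 and 55.1-fold and 56.2-fold above the myosin gene myo2, which had 526 and 524 reads. Next to ylo-1, NCU04014 had 95 and 61 reads and NCU04012 had 2 in each library. al-3 was the exception, since NCU01426 on its left had 1072 and 1171 reads, or 61.9 and 73.5 CPM per kb, above al-3. Their annotated spans share 32 bp, where reads cannot be told apart if counting ignored strand; its setting is not given in the sources. No other pathway gene shares bases with a neighbour.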

How the data were processed

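The deposited count files hold raw read counts per gene from polyadenylated RNA. Bowtie2, DESeq2 and deepTools are named in the submitters' processing notes; the counting program, its strand setting and the build are not given in the sources. Closing rows that name no gene, 16.1% and 16.2% of reads, were left out. Per the file headers, the authors' deposited tables hold mean normalised counts (a signal), a fold ratio with its log2, and raw and adjusted p-values. Their Δlsd1 mean was recovered for all 1060 genes as the mean of the count plus 1 over size factors of 0.640 and 0.591, which sets the direction. The deposited region list holds positions (unit other). The other 14 samples were not analysed here.

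Reads were scaled with edgeR 4.0.16 (TMM, genes with at least 10 reads in each library); DESeq2 1.42.0 size factors and plain totals were alternatives, in R 4.3.3 and Python 3.11.15 with scipy 1.17.1. With 1 group, no test between strains was possible. Code for the tests across genes was tested on simulated data. The carotenoid genes and all lists were chosen with earlier results of these data known. Genes named are the 5 members, list genes found by symbol in the reference table, which matched 9729 of 9730 identifiers, and annotated neighbours; 15 list entries without a symbol there were not used here. No gene was named for a like pattern, since 2 libraries give 1 ratio per gene.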

Additional observations from a re-analysis of the deposited data

How the results depend on the processing

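Levels of the 5 genes moved by less than the spread of the libraries with DESeq2 size factors or plain totals, and no scaling changed which 3 of them passed the binomial test. The direction at al-3 was reversed with plain gene totals, a log2 ratio of 0.038 (adjusted p = 0.801, exact binomial), and al-1 moved from -0.14 to -0.068 (adjusted p = 0.00776, exact binomial). With edgeR's exact test at the common dispersion, 40 genes in place of 1983 differed between the libraries and 0 of the carotenoid genes in place of 3; that dispersion is estimated from the same 2 libraries, so a typical gene cannot be called and the count of 0 says nothing about agreement. Exchanging supercontigs 2 and 7, chosen after seeing the data, left 1 carotenoid gene in a region in place of 2, by construction; counting regions within 1 kb or 5 kb left 2. With an adjusted p under 0.05, or with either library alone, 1 conidiation gene was tabled higher in place of 2. It was csp-2 for the adjusted p and for replicate 2 alone, and con-6 for replicate 1 alone. The count of 0 carotenoid genes was fixed by construction in these settings, since only genes in the authors' deposited tables have a wild-type mean here. Without replicate 1, 0 sterol genes were tabled lower in place of 1. No paired analysis was possible because only 1 group has files here. Levels per coding length were not run, for want of a protein table. The 2 libraries limit every SD, and depth was ample for the 5 genes but not for the quiet genes around cao-2.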

Other observations

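The other carotenoid oxygenase family gene with a symbol, cao-1 (NCU07008), chosen after its values were seen, had 43 reads in replicate 1 and 26 in replicate 2, or 2.85 and 1.87 CPM per kb. It was in neither of the authors' deposited tables, and the nearest deposited region lay 15754 bp away.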
